A study of Homo sapiens with 8 samples.

Results

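The 10 genes described here encode the enzymes that make asparagine (ASNS), serine (PHGDH, PSAT1 and PSPH) and proline (ALDH18A1 and PYCR1), together with mitochondrial enzymes that pass the serine carbon into folate (SHMT2, MTHFD2, MTHFD1L and ALDH1L2). They were chosen by gene symbol for their place in these routes, with earlier results of these data known. All 10 were found among the 61806 genes of the table. Each held at least 67 counts in every library, so none entered the test through 1 condition alone.

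All libraries came from wildtype N/TERT-1 cells, an immortalized line of human keratinocytes. Cells of 4 libraries received ethanol, the solvent, and those of the other 4 received O/A, which is oligomycin, an inhibitor of the mitochondrial ATP synthase, together with antimycin A, an inhibitor of complex III of the respiratory chain. Legends of the study define O/A as 10 µM oligomycin with 4 µM antimycin A in an imaging experiment and name 4 hours of treatment for mRNA-seq, which the labels of the samples do not give.

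Serine is built from a glycolytic intermediate in 3 steps, and its side-chain carbon is then loaded onto tetrahydrofolate as cells make glycine. Inside mitochondria that carbon can be oxidized and released as formate, which the cytosol uses for purine and thymidylate synthesis. Asparagine takes its amide nitrogen from glutamine, and proline is made from glutamate by way of pyrroline-5-carboxylate. Many of these genes are known targets of ATF4, the transcription factor of the integrated stress response, which binds composite C/EBP-ATF response elements.

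Promoter sequence was taken from RefSeq on GRCh38.p14, in windows from 250 bases before to 50 bases after each annotated start. Windows were matched for 6 of the 10 genes, namely ASNS, PHGDH, PSAT1, MTHFD2, MTHFD1L and ALDH18A1, and PSPH, SHMT2, ALDH1L2 and PYCR1 were not matched. Letters of the C/EBP-ATF response element, TGATGNAAN on either strand, were present in 3.61% of 35116 windows and in 4.45% of 27305 genes. Of the 6 matched genes 2 held them, ASNS and MTHFD1L. Of the 39 other matched genes of the same pathways 1 held them, GOT1, the cytosolic aspartate aminotransferase. A stretch of each of these 3 genes is shown because it holds the letters. The matching letters are in capitals with 30 bases on either side, 5′ to 3′ on the strand of the gene. Whether the letters bear on the changes in level was not tested. The ASNS stretch is chr7:97872438-97872506 on the minus strand, the MTHFD1L stretch is chr6:150866327-150866395 on the plus strand, and the GOT1 stretch is chr10:99430785-99430853 on the minus strand, where the element is read on the opposite strand.
ASNS: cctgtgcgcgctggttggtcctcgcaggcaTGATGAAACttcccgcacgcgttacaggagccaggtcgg
MTHFD1L: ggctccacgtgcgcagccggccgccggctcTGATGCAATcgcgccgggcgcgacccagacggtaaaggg
GOT1: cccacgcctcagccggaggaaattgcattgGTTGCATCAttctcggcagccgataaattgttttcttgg
The capitals began 68 bases before an annotated start in ASNS, 129 bases before an annotated start in MTHFD1L and 199 bases before the start in GOT1. The window of another ASNS start held no match. In MTHFD1L, which has several annotated starts, the distance depends on the start chosen. The same letters began 90 bases before another start and 24 bases after yet another, and a further MTHFD1L window held no match.

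The CCAAT box, a common promoter element bound by NF-Y, was present on either strand in 34.6% of windows and 39.7% of genes. It was found in 4 of the 6 matched genes, PHGDH, PSAT1, MTHFD2 and MTHFD1L, and in 19 of the 39 other pathway genes. PSAT1, the gene of highest level among the 10 in O/A, held 3 of them in the same orientation, capitalized in its window at chr9:78296875-78297174 on the plus strand.
PSAT1: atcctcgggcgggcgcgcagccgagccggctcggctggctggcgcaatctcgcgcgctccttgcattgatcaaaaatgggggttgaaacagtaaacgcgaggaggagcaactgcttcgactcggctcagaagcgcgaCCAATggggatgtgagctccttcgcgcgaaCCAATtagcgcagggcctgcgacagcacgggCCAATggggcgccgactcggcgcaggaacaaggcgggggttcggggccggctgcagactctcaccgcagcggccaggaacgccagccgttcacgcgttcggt
The E-box CACGTG, a palindrome bound by MYC and related factors, was present in 7.26% of windows and 8.78% of genes. It was found in 2 of the 6 matched genes, MTHFD1L and ALDH18A1, and in 8 of the 39 other pathway genes. These matches describe letters in the windows and not bound sites.

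In O/A, 8 of the 10 genes were upregulated, 1 was downregulated and 1 did not pass the test. A gene was called upregulated at a log2(FC) above 0.25 with adjusted p no higher than 0.05 in edgeR's quasi-likelihood test over the 14893 genes tested, where 15.8% were upregulated and 18.9% downregulated. The 6 genes above a log2(FC) of 1 were ASNS, PSAT1, ALDH1L2, PSPH, PHGDH and MTHFD2, and 2.56% of all genes tested passed at that level. SHMT2 and PYCR1 rose by less, MTHFD1L did not pass, and ALDH18A1 fell. The median log2(FC) of the 10 genes was 1.54, beside -0.0004 over all genes tested. Scaled counts of the 4 O/A and 4 ethanol libraries did not overlap for 9 of the 10 genes, beside 47.6% of all genes tested. For each of those 9 genes the exact two-sided permutation test gave p = 0.0286, the smallest value that 4 libraries against 4 allow. Any gene whose groups do not overlap gets this value, so it restates the lack of overlap and adds no separate evidence. The values are relative to the mRNA of each library, so a change in total mRNA per cell would not be seen. In bulk samples a change in the share of cells expressing a gene and a change in its level per cell cannot be told apart.

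**Figure D1:**
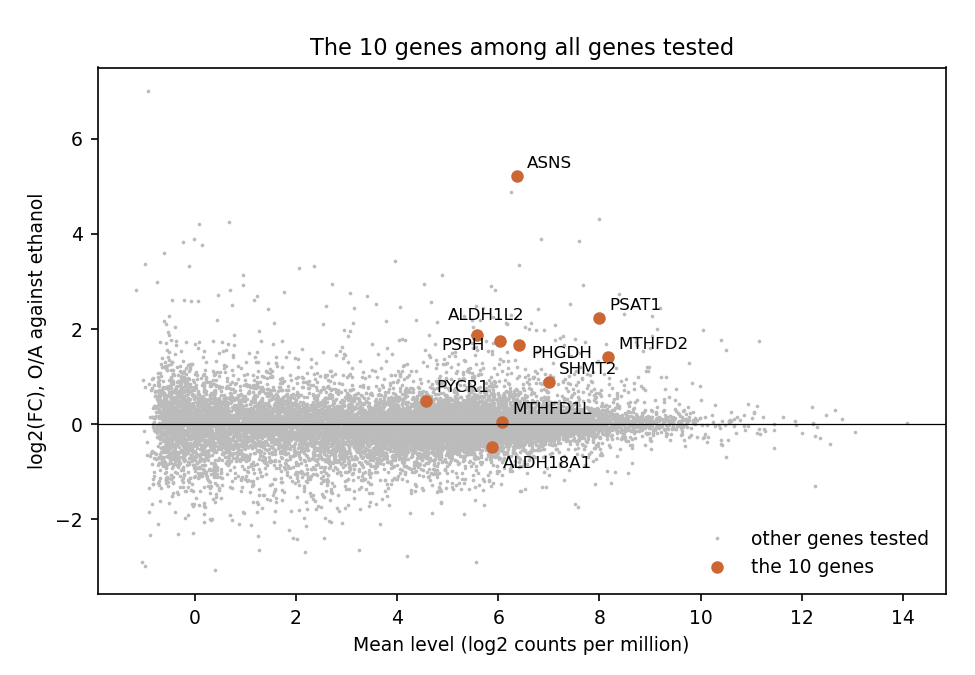
The log2(FC) of the 14893 genes tested is plotted against mean level in log2 CPM, with a grey point per gene and the 10 genes marked in orange and named. ASNS ranks 2 from the top and PSAT1 ranks 59, whereas MTHFD1L lies near 0 within the cloud of other genes.

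The gene for asparagine synthetase, which transfers the amide of glutamine to aspartate, showed the largest rise of the 10 and the second largest of all genes tested. ASNS (ENSG00000070669) lies on chromosome 7 of GRCh38 from 97851677 to 97872542 on the minus strand. Its level, in FPKM (fragments scaled by exonic length and library total), was 0.97, 1.01, 0.80 and 0.83 in ethanol replicates 1 to 4 and 29.34, 31.85, 35.04 and 33.51 in O/A replicates 1 to 4. It was thus the lowest of the 10 genes in every ethanol library, and the lowest O/A library stood far above the highest ethanol library. The log2(FC) was 5.22 (SE 0.074, 95% interval 5.07 to 5.36), a 37.2-fold difference with an adjusted p of 2.65e-23 by edgeR's quasi-likelihood test. The ethanol value rests on 67 to 87 counts per library. A transcript on the same strand, ENSG00000284707, overlaps the gene and held between 10 and 17 counts per ethanol library and between 11 and 21 per O/A library. That is 16.9% of the ASNS counts in ethanol and 0.539% in O/A. These counts were given to the other transcript, and they do not show how many reads fit both. How such reads were counted is not given in the sources used here. The low ethanol level, and the fold that rests on it, are therefore uncertain by an unknown amount.

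The genes of the 3 serine synthesis steps all rose by more than 3-fold. PHGDH (ENSG00000092621), which oxidizes 3-phosphoglycerate in the first step, lies on chromosome 1 from 119648411 to 119744218 on the plus strand. Its FPKM was 4.71, 4.48, 4.2 and 4.72 in ethanol and 12.95, 13.91, 14.77 and 14.10 in O/A. The groups were well apart, with a log2(FC) of 1.66 (SE 0.042, adjusted p = 2.51e-32 by edgeR's quasi-likelihood test). PSAT1 (ENSG00000135069), the transaminase of the middle step, which draws its nitrogen from glutamate, lies on chromosome 9 from 78297125 to 78330093 on the plus strand. Its FPKM was 45.51, 40.29, 39.01 and 40.65 in ethanol and 190.45, 187.36, 191.98 and 180.83 in O/A. It had the highest FPKM of the 10 genes in every library of both conditions, and its log2(FC) was 2.23 (SE 0.036, adjusted p = 7.94e-28 by the same test). PSPH (ENSG00000146733), the phosphatase that releases serine, lies on chromosome 7 from 56011051 to 56051604 on the minus strand. Its FPKM was 11.90, 10.40, 11.42 and 10.53 in ethanol and 36.66, 35.74, 36.76 and 34.03 in O/A, a log2(FC) of 1.74 (SE 0.044, adjusted p = 3.95e-36). All O/A libraries lay above all ethanol libraries for each of the 3 genes. The pseudogene PSPHP1 held 150 to 171 counts per library in both conditions, 27.6% of the PSPH counts in ethanol and 8.80% in O/A. Its counts stayed level while those of PSPH rose. How many reads fit both copies is not shown, which leaves the PSPH level uncertain by an unknown amount.

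Of the 4 mitochondrial one-carbon genes, 3 were upregulated and MTHFD1L was not. SHMT2 (ENSG00000182199), which splits serine into glycine and a folate-bound carbon, lies on chromosome 12 from 57229573 to 57234935 on the plus strand. Its FPKM was 20.49, 20.37, 19.09 and 19.67 in ethanol and 36.49, 34.52, 36.13 and 35.19 in O/A, a log2(FC) of 0.88 (SE 0.032, adjusted p = 4.77e-29 by edgeR's quasi-likelihood test). MTHFD2 (ENSG00000065911), the dehydrogenase and cyclohydrolase that acts next, lies on chromosome 2 from 74186172 to 74217565 on the plus strand. Its FPKM was 14.57, 13.82, 14.26 and 13.20 in ethanol and 36.82, 35.28, 36.04 and 35.32 in O/A, a log2(FC) of 1.41 (SE 0.029, adjusted p = 4.98e-40). Neither gene overlapped between conditions, and the 95% interval of the log2(FC) was 1.35 to 1.46 for MTHFD2 and 0.82 to 0.95 for SHMT2. ALDH1L2 (ENSG00000136010), which oxidizes formyl-tetrahydrofolate to CO2 and yields NADPH, lies on chromosome 12 from 105019784 to 105107643 on the minus strand. Its FPKM was 2.36, 2.18, 2.03 and 2.21 in ethanol and 6.92, 7.86, 8.48 and 8.0 in O/A, a log2(FC) of 1.88 (SE 0.058, adjusted p = 2.27e-22). WASHC4 and NOPCHAP1 overlap ALDH1L2 on the opposite strand over part of its span. WASHC4 held between 2183 and 2685 counts per ethanol library and between 2555 and 2758 per O/A library, which is 604.2% and 195.5% of the ALDH1L2 counts. NOPCHAP1 held 286 to 357 and 295 to 376 counts, which is 84.7% and 24.6%. Whether the counting used strand is not given in the sources used here, so the ALDH1L2 value is uncertain.

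MTHFD1L (ENSG00000120254), the formate-releasing synthetase that follows MTHFD2, lies on chromosome 6 from 150865679 to 151101887 on the plus strand. Its FPKM was 13.62, 14.83, 12.82 and 13.66 in ethanol and 13.65, 13.78, 12.96 and 14.28 in O/A, and the groups overlapped. The log2(FC) was 0.04 (SE 0.042, 95% interval -0.04 to 0.12, adjusted p = 0.465 by edgeR's quasi-likelihood test), an interval that lies inside the threshold of 0.25. The exact permutation test gave p = 0.486. The sign of this small value changed with the scaling, being -0.0075 on library totals alone. Counts of MTHFD2 relative to MTHFD1L within a library were between 2.18 and 2.60 in ethanol and between 5.79 and 6.51 in O/A, a pair chosen after its values were seen and so not tested.

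The 2 genes of proline synthesis from glutamate moved in opposite directions. ALDH18A1 (ENSG00000059573), which makes the glutamate semialdehyde that cyclizes to pyrroline-5-carboxylate, lies on chromosome 10 from 95605941 to 95656711 on the minus strand. Its FPKM was 18.46, 18.48, 19.63 and 17.44 in ethanol and 12.84, 13.29, 12.54 and 12.77 in O/A. All O/A libraries were lower than all ethanol libraries, with a log2(FC) of -0.48 (SE 0.041, adjusted p = 2.48e-14 by edgeR's quasi-likelihood test). PYCR1 (ENSG00000183010), the mitochondrial reductase that completes proline, lies on chromosome 17 from 81932384 to 81942412 on the minus strand. Its FPKM was 7.64, 7.24, 6.66 and 6.14 in ethanol and 9.52, 9.61, 8.87 and 9.70 in O/A, a log2(FC) of 0.49 (SE 0.063, adjusted p = 2.25e-09). The PYCR1 groups did not overlap, although its 1.41-fold rise was the smallest among the 8 upregulated genes. Counts of PYCR1 relative to ALDH18A1 were between 0.261 and 0.318 in ethanol and between 0.543 and 0.583 in O/A, again a pair chosen after its values were seen.

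Each mitochondrial enzyme was then set against a related gene within the same library, a ratio that needs no scaling between libraries. Of the 5 pairs, 4 could be tested, since ALDH1L1, the cytosolic relative of ALDH1L2, held 0 to 4 counts, and 3 are reported here. Counts of SHMT2 relative to cytosolic SHMT1 lay between 2.10 and 2.52 in ethanol and between 4.26 and 4.65 in O/A, a 1.91-fold change. The count of MTHFD2 relative to MTHFD2L, a second mitochondrial form, lay between 12.9 and 14.7 in ethanol and between 25.5 and 31.9 in O/A, a 1.98-fold change. For these pairs the exact two-sided permutation test gave p = 0.0286, or 0.0381 after Benjamini-Hochberg adjustment over the 4 pairs tested. As for single genes, the exact p is the smallest possible and only restates that the ratios of the groups did not overlap. The count of MTHFD1L relative to cytosolic MTHFD1 moved from 0.435 to 0.511 in ethanol to 0.555 to 0.599 in O/A, a 1.20-fold change with the same exact p. That change came with MTHFD1 at a log2(FC) of -0.22, whose adjusted p was 1.66e-08 by edgeR's quasi-likelihood test but which lies within the threshold.

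**Figure D2:**
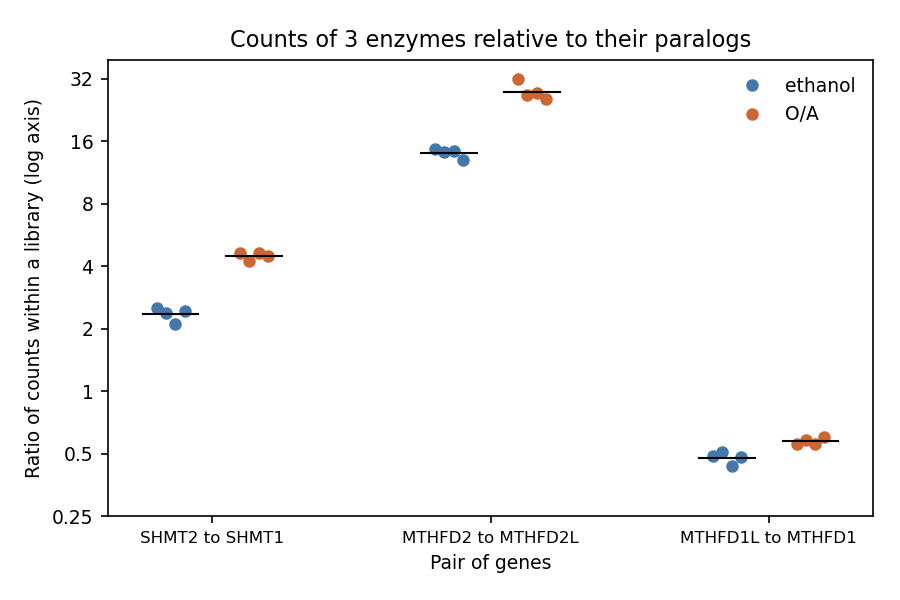
Count ratios of 3 gene pairs are plotted for each library on a log axis, ethanol in blue and O/A in orange, with a black line at the geometric mean of the group. The SHMT2 to SHMT1 and MTHFD2 to MTHFD2L ratios rise 1.91-fold and 1.98-fold without overlap, and the MTHFD1L to MTHFD1 ratio shifts by 1.20-fold.

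Among 53 other genes of serine, folate, proline and aspartate metabolism, 44 were tested, of which 5 were upregulated, 12 downregulated and 27 neither. Their median log2(FC) was -0.06, and the groups did not overlap for 24 of them. Over all genes tested, 15.8% were upregulated, 18.9% were downregulated and 47.6% did not overlap. These shares stand beside the counts here and beside those of each pathway list below. The 9 genes not tested had at most 12 counts in any library.

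**Figure D3:**
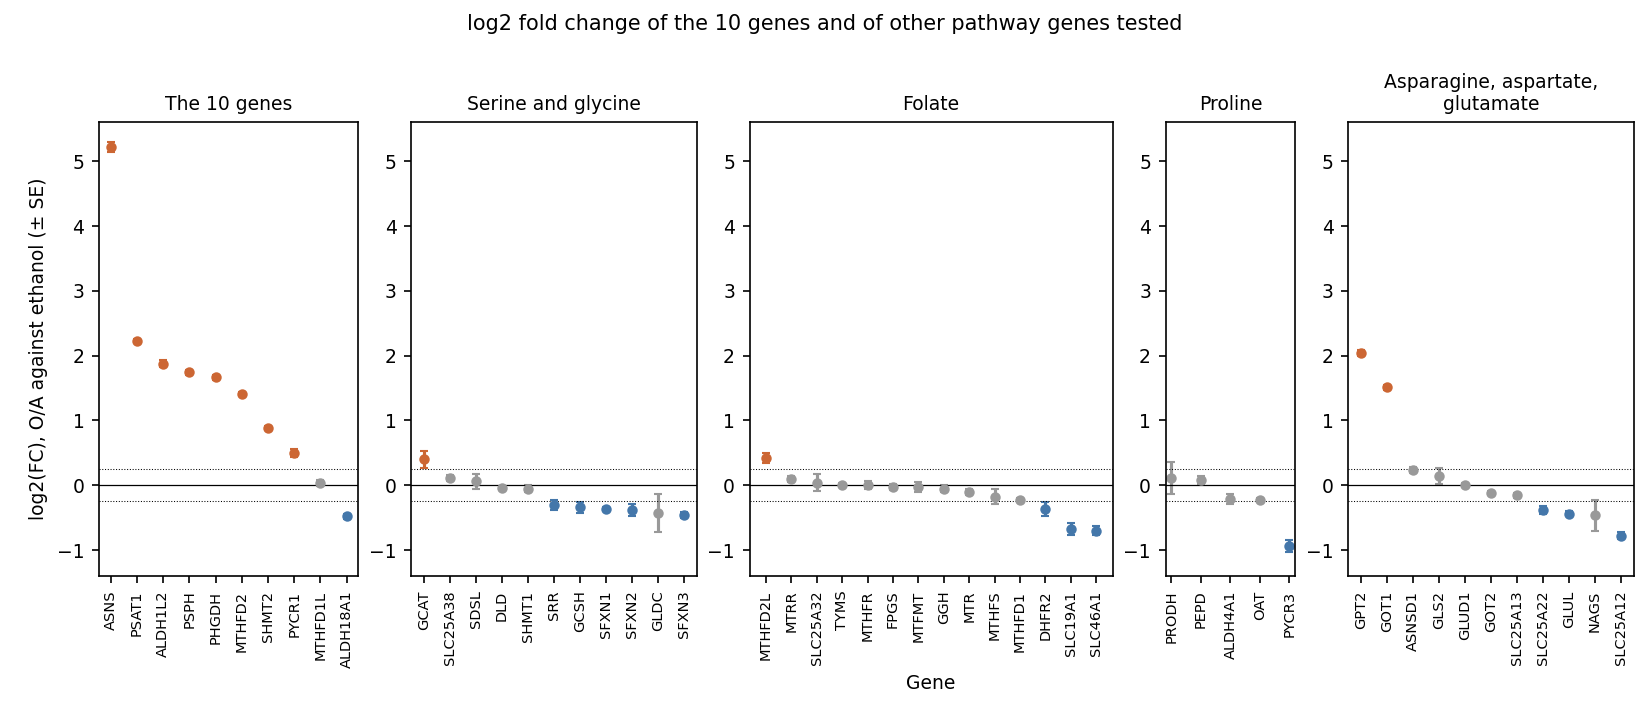
The log2(FC) of O/A against ethanol is plotted for each of the 10 genes and, in 4 further panels, for other pathway genes tested, with bars for the SE, dotted lines at the threshold of 0.25 on either side, and upregulated genes in orange, downregulated genes in blue and genes not called in grey. The 10 genes run from ASNS at 5.22 to ALDH18A1 at -0.48, and among the others GPT2 at 2.04 and GOT1 at 1.51 stand apart from genes that lie between -0.94 and 0.43.

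In serine and glycine metabolism, 1 of 11 genes tested was upregulated and 5 were downregulated. The upregulated gene was GCAT, a mitochondrial enzyme of threonine breakdown, at a log2(FC) of 0.40 with overlapping groups, and without O/A replicate 3 it was 0.28 with an adjusted p of 0.0892 by edgeR's quasi-likelihood test. The downregulated genes were the sideroflexins SFXN3 (log2(FC) -0.46), SFXN2 (-0.38) and SFXN1 (-0.37), of which SFXN1 and SFXN3 carry serine into mitochondria, GCSH (-0.34), a glycine cleavage protein, and SRR (-0.30), the serine racemase. SFXN1, GCSH and SRR were named after their values were seen. SHMT1, which makes the cytosolic counterpart of SHMT2, did not pass at -0.05, nor did DLD (-0.04) or SLC25A38 (0.11), a glycine carrier.

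In folate metabolism, 1 of 15 genes tested was upregulated and 3 were downregulated. MTHFD2L rose with a log2(FC) of 0.43 (adjusted p = 6.55e-06 by edgeR's quasi-likelihood test), less than MTHFD2. The plasma membrane folate carriers SLC46A1 and SLC19A1 fell, with log2(FC) values of -0.70 and -0.68, as did DHFR2 (-0.37), named after its values were seen. TYMS, which makes thymidylate, stood at 0.01 and did not pass, and the sign of its value changed with the scaling.

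In the rest of proline metabolism, 6 genes were tested, with 1 upregulated and 1 downregulated. PYCR3, the cytosolic reductase, fell with a log2(FC) of -0.94 (adjusted p = 1.44e-12) by edgeR's quasi-likelihood test. OAT, which makes the same semialdehyde from ornithine, stood at -0.22 (adjusted p = 1.07e-09 by the same test). ALDH4A1, which oxidizes the semialdehyde back to glutamate, stood at -0.21 (adjusted p = 0.019 by the same test). Both lay within the threshold, although their groups did not overlap.

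In asparagine, aspartate and glutamate metabolism, 2 of 12 genes tested were upregulated and 3 downregulated. GPT2, the mitochondrial alanine aminotransferase, rose with a log2(FC) of 2.04 (adjusted p = 8.37e-37), and GOT1 with a log2(FC) of 1.51 (adjusted p = 7.28e-32), both by edgeR's quasi-likelihood test. GOT2, the mitochondrial aspartate aminotransferase, stood at -0.12 (adjusted p = 0.00014 by the same test), within the threshold although its groups did not overlap. Downregulated genes were SLC25A12 (log2(FC) -0.78), which exports aspartate from mitochondria, GLUL (-0.44), which makes glutamine, and SLC25A22 (-0.38), a glutamate carrier, of which GLUL and SLC25A22 were named after their values were seen.

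Levels were next compared between genes on the FPKM scale. In ethanol, PSAT1 led with 41.4 ± 2.85 FPKM (SD, n = 4), followed by SHMT2 (19.9 ± 0.653) and ALDH18A1 (18.5 ± 0.895), whose ranges overlapped. MTHFD2 (14 ± 0.594) and MTHFD1L (13.7 ± 0.828) overlapped as well, and then came PSPH (11.1 ± 0.719), PYCR1 (6.92 ± 0.658), PHGDH (4.53 ± 0.245), ALDH1L2 (2.20 ± 0.135) and ASNS (0.90 ± 0.10). ASNS was therefore last in ethanol, at a level below that of every other gene of the 10. In O/A, PSAT1 again led with 187.7 ± 4.94 FPKM (SD, n = 4), and MTHFD2 (35.9 ± 0.726), PSPH (35.8 ± 1.26), SHMT2 (35.6 ± 0.896) and ASNS (32.4 ± 2.44) followed with each overlapping its neighbour. PHGDH (13.9 ± 0.752), MTHFD1L (13.7 ± 0.544) and ALDH18A1 (12.9 ± 0.314) formed the next overlapping group, above PYCR1 (9.43 ± 0.377) and ALDH1L2 (7.82 ± 0.653). These orders depend on the exonic size used by the authors, which for PHGDH is 4.92 times the canonical transcript of GENCODE and for PSAT1 is 1.00 times. Scaled by the canonical transcript instead, SHMT2 (42.4) and PSAT1 (41.4) led in ethanol with overlapping ranges, and in O/A PSAT1 (187.7) stood above MTHFD2 (93.2), SHMT2 (75.8), PHGDH (68.6) and ASNS (66.6), all on that canonical scale.

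The summed scaled level of the 10 genes was 2.75-fold higher in O/A, or 2.67-fold as an unscaled share of all counted fragments. Their summed CPM, the counts scaled to library size by TMM, was 587.2 ± 20.6 (SD, n = 4) in ethanol and 1615 ± 28.0 in O/A. The serine synthesis genes went from 160.9 to 651.0, the mitochondrial one-carbon genes from 333.9 to 726.2 and ASNS from 4.34 to 161.3, whereas the proline genes went from 88.1 to 76.7. PSAT1 made up 32.2% of the net increase, MTHFD2 25.3% and ASNS 15.3%. MTHFD2 held nearly the same share of the summed counts in both conditions, 26.8% in ethanol and 25.8% in O/A, while ASNS went from 0.739% to 9.99%.

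**Figure D4:**
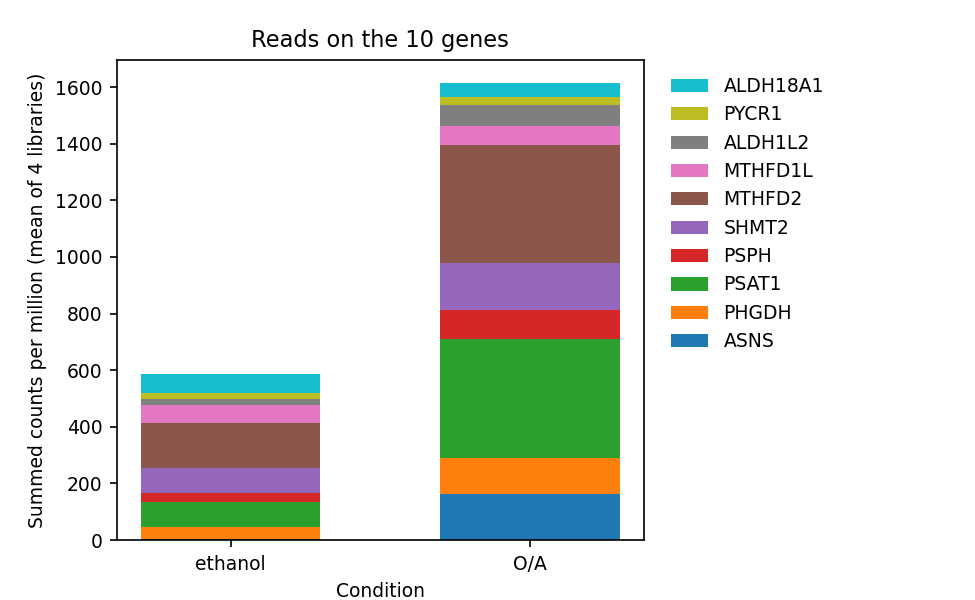
The mean CPM over 4 libraries is stacked for the 10 genes in a bar for each condition. The ethanol bar reaches 587.2 and the O/A bar 1615, and the PSAT1 and MTHFD2 segments take up 26.0% and 25.8% of the O/A bar.

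The keratinocyte identity of the cells was checked with 10 markers, all detected, whose summed level was 5324 to 5668 FPKM in ethanol and 4889 to 5140 in O/A. The summed fibroblast markers were at 2.42 to 2.95 FPKM in ethanol and 2.46 to 2.70 in O/A, nearly all COL1A1. Melanocyte markers were at 0.35 to 0.64 and 0.27 to 0.66, with TYR and MLANA at 0 in every library, and leukocyte markers at 0.46 to 0.62 and 0.65 to 0.88. Among these lists 1 of 7 fibroblast, 1 of 5 melanocyte and 1 of 5 leukocyte genes reached 10 counts. The keratinocyte sum was lower in every O/A library, but its members differed in direction. Of the 10 markers, 3 were lower in every O/A library (KRT5, KRT14 and SFN), 4 were higher in every O/A library (DSG3, LAMB3, ITGB4 and ITGA6) and 3 overlapped. DSG3 lay at 50.5 to 54.0 FPKM in ethanol and 100.01 to 104.9 in O/A. The part of these marker differences in the results above was not tested. Total counts lay between 17210404 and 20999927 for ethanol and between 17689760 and 19263046 for O/A.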

How the data were processed

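Per the labels and the methods of the study, mRNA was selected with oligo(dT), sequenced, aligned to GRCh38.p13 with HISAT2 2.0.1 and counted on genes with HTSeq 0.6.1. The authors deposited an integer count per gene and library, not normalized, and an FPKM value, which was within 0.005 of the count scaled by exonic size and library total. The strand setting is not given in the sources used here. A deposited table of the authors' comparison, with fold changes and p-values, was not used.

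Counts were scaled by TMM and tested with the robust quasi-likelihood test of edgeR 4.0.16 in R 4.3.3, over the 14893 of 61806 genes that reached 10 counts in 4 or more libraries, with Benjamini-Hochberg adjustment. Genes were called at an adjusted p of at most 0.05 and an absolute log2(FC) above 0.25. Replicates are biological replicates per the labels. Over 11168 genes, chi-square divided by its degrees of freedom was 1.78 to 5.95 between libraries of 1 condition and 54.9 to 66.4 between conditions, so none was a copy of another. The study names 4 independent experiments per group, and whether same-numbered libraries share an experiment is not given. Same-numbered libraries deviated with correlations of -0.02 to 0.07. Values near 0 show no sizeable shared deviation but cannot tell whether the design was paired, and the main test left the numbers unpaired.

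The 10 genes and the pathway lists were chosen with earlier results of these data known. Named are the 10 genes, 5 related genes, up to 3 called genes of largest change and up to 2 uncalled genes of highest level per pathway list, genes overlapping or sharing the name of 1 of the 10 where they hold counts, and those said to be named later. Some genes are not reported here. Single genes and ratios were compared by exact permutation tests. Alternatives were DESeq2 1.42.0, limma 3.58.1 on log2(FPKM + 0.1) and log2(FPKM + 1), other scalings, filters and thresholds, the replicate block and each library left out. The scaling of levels by canonical transcript length was added after seeing the data. The edgeR, DESeq2 and limma fits were tested on simulated data. Totals of 17210404 to 20999927 counts leave genes with few counts, such as ASNS in ethanol, less precise.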

Additional observations from a re-analysis of the deposited data

Results flagged for a closer look

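In 2 of 56 groups of 4 libraries checked, 1 library was distant from the rest of its group. Chance alone flags about 1 in 20 groups, or 2.8 here. None of the 10 enzymes was among them. The values are TMM-scaled CPM. SHMT1 was 37.7 in O/A replicate 2, beside 36.5 to 36.6 in the other O/A libraries. SLC25A38 was 35.1 in ethanol replicate 3, beside 31.1 to 31.8 in the other ethanol libraries.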

How the results depend on the processing

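The 9 called enzyme genes kept their call and direction in all 16 alternative fits, the ASNS log2(FC) ranging from 4.13 to 5.28. With the replicate number as a block, 8 of the 10 genes were up and 1 down, and 2354 of all genes were up and 2806 down. For count ratios, the sign-flip test of the replicate block cannot go below an exact p of 0.125. Above an absolute log2(FC) of 1, 382 of all genes were up and 415 down, 0 of the 10 genes down, and 2 other pathway genes up and 0 down. Without a fold change threshold, 3868 genes were up. On log2(FPKM + 1), which understates changes of low genes, 1514 genes and 3 other pathway genes were up, and MTHFD2L (0.22), GCAT (0.23) and SFXN2 (-0.23) came within the threshold. MTHFD1L turned to -0.0075 on library totals, to -0.0057 on log2(FPKM + 0.1), also in the exact test, and to -0.0054 on log2(FPKM + 1). TYMS turned to -0.0404 on library totals, -0.0002 without a filter, -0.0405 on log2(FPKM + 0.1) and -0.0397 on log2(FPKM + 1), and ranged from -0.0151 to 0.0421 with 1 library left out. MTHFD1, OAT and ALDH4A1 passed the threshold on library totals and on log2(FPKM + 0.1), at -0.25 to -0.27, where the median of all genes was at -0.05 and -0.04. In these fits 15 and 16 other pathway genes were down, beside 12 in the main fit. OAT also passed on log2(FPKM + 1), at -0.26. For these changes the cause was not tested. Depth limits the ethanol value of ASNS, at 67 to 87 counts.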
